A study of Homo sapiens with 6 samples.

Results

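The 10 nuclear genes TFAM, POLRMT, TFB1M, TFB2M, POLG, POLG2, TWNK, SSBP1, LRPPRC and SLIRP encode factors that transcribe, copy and stabilise the mitochondrial genome and its messages. They were taken as a named list, and all 10 were found among the 60612 genes of each expression table. Expression was measured by poly(A) RNA sequencing in HCT116, an established human colorectal carcinoma line. LV-NC cells had been infected with a negative control lentivirus (3 libraries), and LV-SNORA28 cells with a GV235-based lentivirus carrying the H/ACA small nucleolar RNA SNORA28 (3 libraries). All 6 libraries therefore come from virus-infected cells of 1 line, and uninfected cells were not analysed here. The labels do not say whether replicates were separate infections, so p-values measure only the spread between these samples, which may be technical. Levels are given in FPKM, the deposited unit, in which fragments are scaled to transcript length and library size.

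The mitochondrial genome is a small circle transcribed from promoters on both strands by the single-subunit RNA polymerase POLRMT, with TFAM bending the promoter DNA and TFB2M helping to melt it. It is copied by the polymerase POLG with its accessory subunit POLG2, the helicase TWNK and the single-stranded DNA binding protein SSBP1. The LRPPRC-SLIRP complex protects most mitochondrial messages and favours their polyadenylation. Many of these nuclear genes are known to carry binding sites for NRF1 and for the ETS factor GABP in their promoters, which ties their expression to mitochondrial biogenesis.

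Promoters are shown here because shared NRF1 and ETS motifs are the textbook link between these genes. RefSeq promoter windows (GRCh38.p14, 250 bases before to 50 after the annotated start) were matched for 9 of the 10 genes by symbol, and TWNK had no entry. Both strands were searched for the NRF1 palindrome (GCGCA, any base, then GCGC) and for the ETS core CCGGAAG. POLRMT, TFAM, TFB1M and SSBP1 are printed 5′ to 3′ on the gene's strand, with the bases of either motif, on either strand, in capitals. They hold both motifs (POLRMT, TFB1M), the first alone (TFAM) or the second alone (SSBP1).
POLRMT (chr19:633488-633787, minus strand): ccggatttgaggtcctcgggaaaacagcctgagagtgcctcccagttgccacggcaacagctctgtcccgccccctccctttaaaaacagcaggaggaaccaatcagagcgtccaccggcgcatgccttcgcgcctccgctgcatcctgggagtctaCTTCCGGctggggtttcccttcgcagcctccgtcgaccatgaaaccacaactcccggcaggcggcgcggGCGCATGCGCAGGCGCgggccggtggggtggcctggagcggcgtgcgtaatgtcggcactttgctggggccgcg
TFAM (chr10:58385160-58385459, plus strand): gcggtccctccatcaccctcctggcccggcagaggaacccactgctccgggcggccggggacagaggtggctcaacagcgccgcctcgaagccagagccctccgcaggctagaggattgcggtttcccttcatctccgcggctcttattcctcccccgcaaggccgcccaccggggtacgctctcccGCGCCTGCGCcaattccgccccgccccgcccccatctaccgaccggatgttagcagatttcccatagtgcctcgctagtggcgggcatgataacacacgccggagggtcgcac
TFB1M (chr6:155314435-155314734, minus strand): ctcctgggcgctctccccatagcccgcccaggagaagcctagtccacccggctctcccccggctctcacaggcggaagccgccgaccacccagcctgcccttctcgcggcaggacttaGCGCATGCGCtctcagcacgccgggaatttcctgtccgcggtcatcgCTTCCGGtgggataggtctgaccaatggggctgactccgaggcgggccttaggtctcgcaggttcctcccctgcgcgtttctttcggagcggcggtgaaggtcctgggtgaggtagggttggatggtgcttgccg
SSBP1, 1 of 3 annotated starts (chr7:141738108-141738407, plus strand): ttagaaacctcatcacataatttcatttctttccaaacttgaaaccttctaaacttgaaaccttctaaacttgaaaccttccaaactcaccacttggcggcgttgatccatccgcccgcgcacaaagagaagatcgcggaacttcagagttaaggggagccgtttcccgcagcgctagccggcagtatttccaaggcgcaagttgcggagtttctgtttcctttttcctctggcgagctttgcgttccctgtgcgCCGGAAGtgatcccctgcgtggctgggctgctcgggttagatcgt

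The NRF1 palindrome was found in 4 of the 9 genes, namely TFAM, POLRMT, TFB1M and POLG2. POLRMT held 2 matches, which overlap each other in the long capital run near its start. Among 15326 protein-coding genes with a window, 9.74% held it, and among all 35116 windows 5.78% did. The ETS core was found in 5 of the 9 genes, namely POLRMT, TFB1M, POLG2, SSBP1 and SLIRP, against 16.7% of protein-coding genes and 10.3% of all windows. The windows of TFB2M, POLG and LRPPRC held neither set of letters exactly. Near matches were not counted, so these windows may still hold similar letters. These matches describe letters in a window and were not tested as binding sites.

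The libraries followed their labels. SNORA28 stood at 0.92, 0 and 0.64 FPKM with the control virus, against 15.01, 13.66 and 15.2 FPKM under LV-SNORA28. Read from poly(A) libraries, these values serve to check the labels and do not measure the level of the mature small RNA. Between 24231 and 25771 genes per library were above 0 FPKM. Of 7 colon epithelial markers, 6 were expressed, with EPCAM at 96.86 to 115.21 FPKM, while VIL1 did not exceed 0.04 FPKM. Of 7 markers of leukocytes, endothelium, fibroblasts and muscle, 5 stayed below 0.1 FPKM in every library. The exceptions were COL1A1 and DES, at 3.16 to 4.46 and 1.42 to 2.13 FPKM. The marker sums did not separate the groups, running from 4.74 to 6.68 FPKM in LV-NC and from 5.31 to 5.9 FPKM in LV-SNORA28 for these 7. In bulk RNA, fewer cells of a type and less RNA per cell cannot be told apart.

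The central comparison asked whether the machinery that reads and copies mitochondrial DNA differed in expression after SNORA28 overexpression. None of the 10 genes passed an adjusted p below 0.05 in limma, where 8.91% of the 12076 genes tested passed. With only 10 genes, the absence of a call is near that share. The lowest adjusted p among them was 0.114, for POLRMT. At an unadjusted p below 0.05 there were 3 of 10, namely POLRMT, SSBP1 and LRPPRC, against 28.0% of all genes tested. The same 3 genes had groups that did not overlap, against 35.1% of all genes tested. None met the threshold of the study, a fold change above 1.5 with an unadjusted p below 0.05, taken here on the log2(FPKM + 1) scale, which 3.79% of all genes tested met. All 10 averaged at least 1 FPKM over the 6 libraries and so entered the test.

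Of the 10 estimates, 9 were positive and that of POLRMT was negative. Their median log2 fold change was 0.16, beside 0.09 over all genes tested, of which 66.7% were positive. With quantile normalization the median was 0.07, beside -0.0013 over all genes, and 8 estimates were positive. The middle 50% of all genes tested ran from -0.05 to 0.22 on the log2 scale, and 8 of the 10 genes lay within it. POLRMT lay below that range and TWNK above it.

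**Figure D1:**
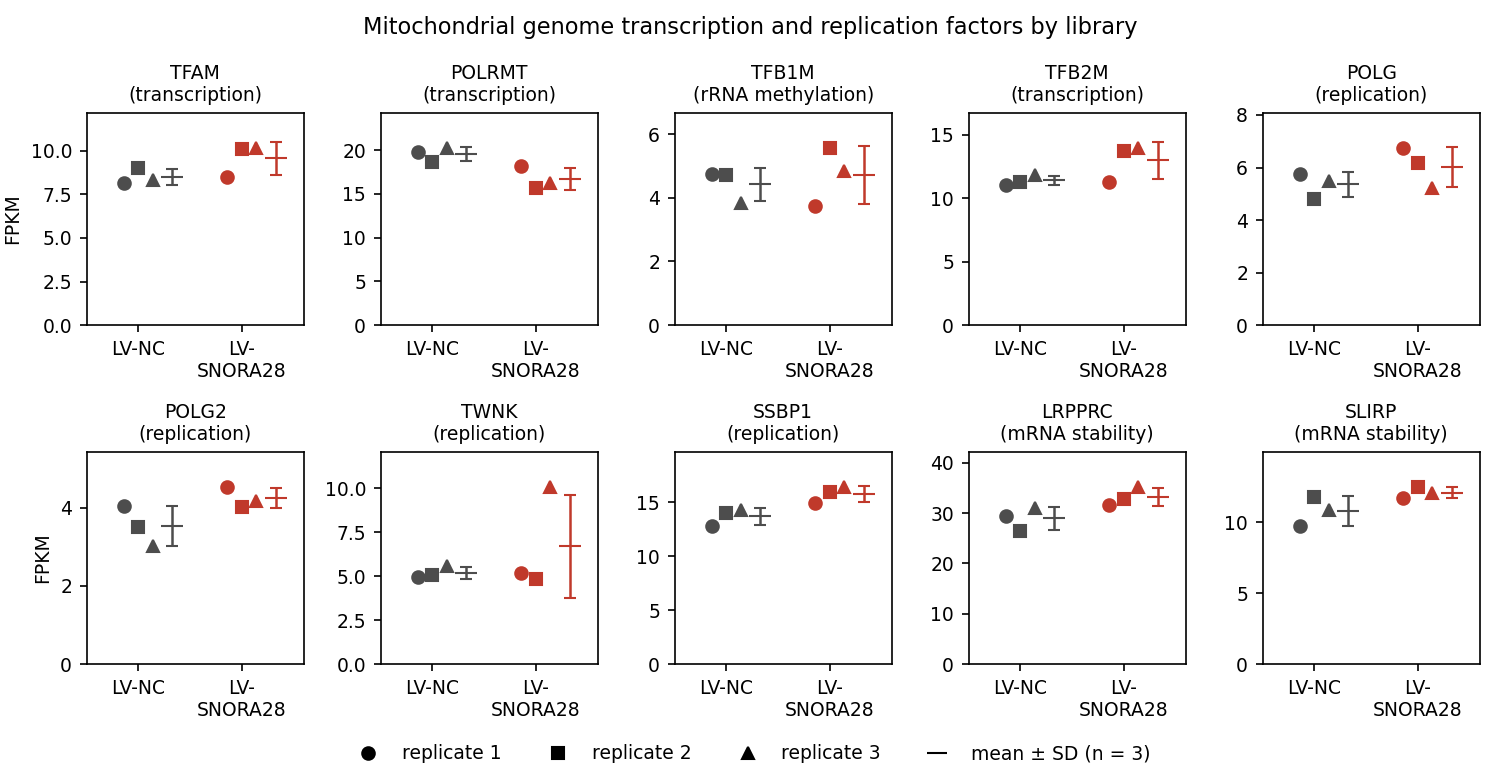
FPKM of each of the 10 factors (vertical axes from 0, one scale per gene) in the 3 LV-NC libraries (grey) and the 3 LV-SNORA28 libraries (red). Symbols mark replicate numbers, and the bar beside them the mean ± SD (n = 3). POLRMT, SSBP1 and LRPPRC have groups that do not overlap, and TWNK has 1 LV-SNORA28 library at 10.06 FPKM, far above the others.

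POLRMT (ENSG00000099821; GRCh38 chromosome 19, 617221 to 633537, minus strand), the mitochondrial RNA polymerase, stood at 19.77, 18.68 and 20.19 FPKM with the control virus, against 18.14, 15.67 and 16.22 FPKM under LV-SNORA28. Every LV-SNORA28 library was below every LV-NC library. The LV-SNORA28 mean, 16.7 ± 1.30 FPKM (SD, n = 3), was 0.853 of the LV-NC mean, 19.5 ± 0.779 FPKM (SD, n = 3). The log2 fold change was -0.22 (95% interval -0.40 to -0.04) (unadjusted p 0.0223 and adjusted p 0.114, both from limma). Under quantile normalization the adjusted p was 0.0753 and the log2 fold change -0.30. The annotated pseudogene POLRMTP1 on chromosome 17 was listed at 0.35 to 0.64 FPKM.

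TFAM (ENSG00000108064; chromosome 10, 58385345 to 58399220, plus strand), which packages mitochondrial DNA and activates its promoters, stood at 8.14, 9.02 and 8.31 FPKM with the control virus, against 8.48, 10.1 and 10.14 FPKM under LV-SNORA28. The groups overlapped, since LV-SNORA28 replicate 1 lay among the control libraries. Its log2 fold change was 0.15 (95% interval -0.06 to 0.36) (adjusted p 0.303 in limma). Its pseudogenes TFAMP1 and TFAMP2 did not exceed 0.13 FPKM.

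TFB2M (ENSG00000162851; chromosome 1, 246540561 to 246566261, minus strand), the transcription initiation factor, showed a like arrangement. It stood at 11.05, 11.3 and 11.8 FPKM with the control virus, against 11.3, 13.7 and 13.91 FPKM under LV-SNORA28. LV-SNORA28 replicate 1 equalled LV-NC replicate 2, and the other two libraries lay above all controls. Its estimate was a log2 fold change of 0.17 (95% interval -0.05 to 0.38) (adjusted p 0.275 in limma).

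TFB1M (ENSG00000029639; chromosome 6, 155256134 to 155314493, minus strand) is the paralog of TFB2M that dimethylates the small mitochondrial ribosomal RNA. It stood at 4.74, 4.71 and 3.82 FPKM with the control virus, against 3.73, 5.55 and 4.84 FPKM under LV-SNORA28. The lowest and the highest of the 6 values were both in LV-SNORA28. Its log2 fold change of 0.07 (95% interval -0.27 to 0.40; adjusted p 0.800 in limma) was -0.03 under quantile normalization, so it has no settled direction. On the opposite strand, TIAM2 overlaps exons of TFB1M and was listed at 0.42 to 0.76 FPKM.

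SSBP1 (ENSG00000106028; chromosome 7, 141738334 to 141787922, plus strand), which coats single-stranded mitochondrial DNA at the replication fork, was the most expressed of the replication genes. It stood at 12.77, 14.04 and 14.27 FPKM with the control virus, against 14.91, 15.94 and 16.37 FPKM under LV-SNORA28. Its groups did not overlap, though the gap between them was smaller than the range within either. The log2 fold change was 0.19 (95% interval 0.02 to 0.36) (unadjusted p 0.0325 and adjusted p 0.139, both from limma).

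POLG (ENSG00000140521; chromosome 15, 89305198 to 89334861, minus strand), the catalytic subunit of the DNA polymerase, stood at 5.75, 4.82 and 5.5 FPKM with the control virus, against 6.73, 6.16 and 5.22 FPKM under LV-SNORA28. The groups overlapped, and the log2 fold change was 0.14 (95% interval -0.11 to 0.39; adjusted p 0.422 in limma). FANCI overlaps its exons from the opposite strand at 6.03 to 9.25 FPKM, and whether counting used strand is not given in the sources used here.

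POLG2 (ENSG00000256525; chromosome 17, 64477785 to 64497054, minus strand), which clamps POLG to its template, stood at 4.04, 3.51 and 3.03 FPKM with the control virus, against 4.52, 4.02 and 4.18 FPKM under LV-SNORA28. The groups met at LV-NC replicate 1 and LV-SNORA28 replicate 2. POLG2 had a log2 fold change of 0.22 (95% interval -0.02 to 0.46; adjusted p 0.218 in limma).

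TWNK (ENSG00000107815; chromosome 10, 100987367 to 100994403, plus strand), the helicase, stood at 4.95, 5.08 and 5.6 FPKM with the control virus, against 5.17, 4.87 and 10.06 FPKM under LV-SNORA28. Replicate 3 of LV-SNORA28 alone was high, and the other two LV-SNORA28 libraries lay among or below the controls. The log2 fold change of 0.25 (95% interval -0.32 to 0.82; adjusted p 0.544 in limma) became -0.04 without that library. MRPL43, which overlaps the start of TWNK from the opposite strand, was listed at 8.17 FPKM in that library, within its range of 5.46 to 8.99 FPKM elsewhere.

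LRPPRC (ENSG00000138095; chromosome 2, 43886224 to 43996226, minus strand), the pentatricopeptide repeat protein of the message-stabilising complex, stood at 29.35, 26.51 and 30.99 FPKM with the control virus, against 31.6, 32.81 and 35.1 FPKM under LV-SNORA28. Its groups did not overlap, but LV-NC replicate 3 and LV-SNORA28 replicate 1 lay close together. The log2 fold change was 0.19 (95% interval 0.0059 to 0.38) (unadjusted p 0.0449 and adjusted p 0.168, both from limma).

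SLIRP (ENSG00000119705; chromosome 14, 77708071 to 77761104, plus strand), the RNA-binding partner of LRPPRC, stood at 9.7, 11.79 and 10.87 FPKM with the control virus, against 11.72, 12.45 and 12.08 FPKM under LV-SNORA28. LV-NC replicate 2 lay just above the lowest LV-SNORA28 library. SLIRP had a log2 fold change of 0.15 (95% interval -0.04 to 0.35; adjusted p 0.271 in limma). SNW1 overlaps SLIRP exons from the opposite strand at 27.72 to 34.44 FPKM. The SLIRP pseudogenes SLIRPP1 and SLIRPP2 were listed at 0.

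**Figure D2:**
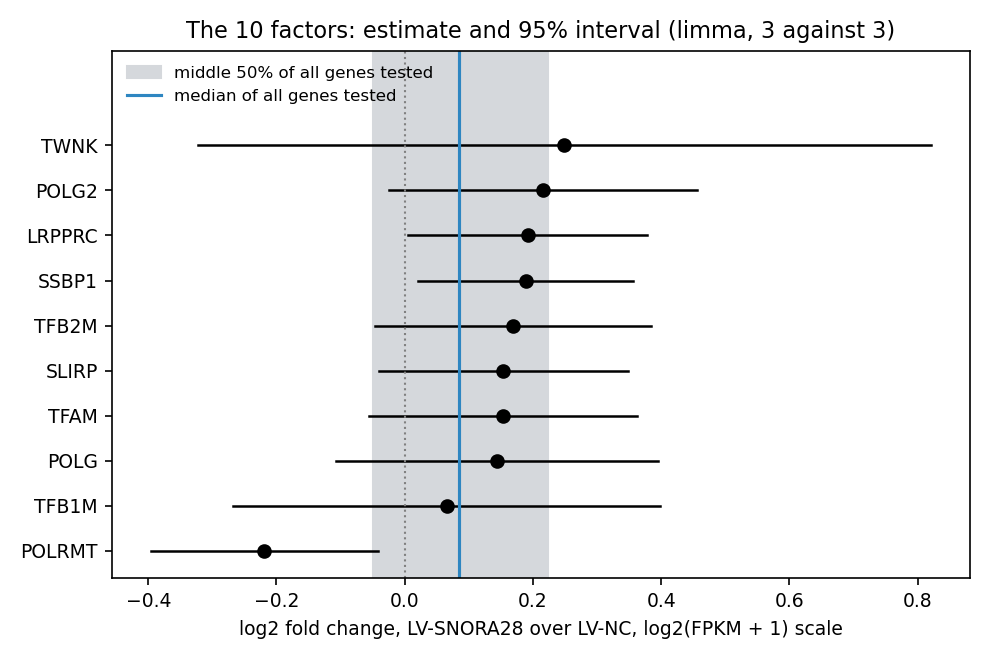
Estimates (points) and 95% intervals (lines) of the log2 fold change, LV-SNORA28 over LV-NC on the log2(FPKM + 1) scale, for the 10 factors (3 against 3 libraries). The blue line is the median of all genes tested (0.09) and the band their middle 50% (-0.05 to 0.22); POLRMT lies below the band with an interval from -0.40 to -0.04, and TWNK has the widest interval, -0.32 to 0.82.

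The intervals bound what these libraries could show. The upper limits ran from -0.04 for POLRMT to 0.46 for POLG2 on the log2 scale, except for TWNK at 0.82. The lower limits ran from -0.40 for POLRMT to 0.02 for SSBP1. A missed threshold does not show that a gene was equal in the groups.

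Since FPKM is scaled per length, levels could be compared between genes. In LV-NC the order was LRPPRC (29.0 FPKM), POLRMT (19.5), SSBP1 (13.7), TFB2M (11.4), SLIRP (10.8), TFAM (8.49), POLG (5.36), TWNK (5.21), TFB1M (4.42) and POLG2 (3.53). TFB2M and SLIRP, and POLG and TWNK, were closer to each other than the larger of their SDs. LRPPRC thus stood at the top and the polymerase accessory subunit at the bottom. In LV-SNORA28 the order was the same but for POLG and TWNK, which changed places. There POLRMT (16.7 FPKM) and SSBP1 (15.7 FPKM) also lay within the larger SD of each other, as did TFAM and TWNK, and TFB1M and POLG2.

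Ratios of partner genes within a library do not depend on how that library was scaled, and 5 were compared by exact two-sided permutation tests, which cannot go below p = 0.1 with 3 against 3 libraries. TFAM/POLRMT was 0.412, 0.483 and 0.412 in LV-NC and 0.467, 0.645 and 0.625 in LV-SNORA28. LV-SNORA28 replicate 1 lay within the control range and the other two above it. The mean log2 ratio was -1.20 in LV-NC and -0.80 in LV-SNORA28, a difference of 0.40 (exact permutation p 0.2, adjusted p 1 over the 5 ratios). LRPPRC/SLIRP was 2.71 ± 0.408 (SD, n = 3) with the control virus and 2.75 ± 0.142 (SD, n = 3) with SNORA28, with an exact permutation p of 0.9. POLG/POLG2 was 1.54 ± 0.242 (SD, n = 3) and 1.42 ± 0.153 (SD, n = 3), with an exact permutation p of 0.6. TFB1M/TFB2M was 0.390 ± 0.0576 (SD, n = 3) and 0.361 ± 0.0392 (SD, n = 3), also with an exact permutation p of 0.6. TWNK/SSBP1 was 0.381 ± 0.0165 (SD, n = 3) and 0.422 ± 0.168 (SD, n = 3), with an exact permutation p of 1. All 5 ratios had overlapping groups.

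The transcripts made and protected by this machinery were compared in the same libraries. The 37 mitochondrially encoded genes accounted for 42.9%, 47.7% and 42.7% of summed FPKM with the control virus and for 38.3%, 37.8% and 35.9% with SNORA28. These groups did not overlap (exact two-sided permutation p 0.1, the smallest that 3 against 3 libraries allow). All 13 mitochondrial messages had negative log2 fold changes, from -0.77 to -0.22, and 4 of them fell with an adjusted p below 0.05 in limma, against 2.10% of all genes tested called lower. These 4 were MT-ND6, MT-ND5, MT-ATP6 and MT-CO1. The direction of the messages as a family held for FPKM and nuclear scaling. Quantile normalization gives every library the same set of values. The 13 messages alone made up 31.0% to 43.1% of summed FPKM per library. It therefore largely removes a fall shared by RNAs that abundant, and cannot decide this direction. There the 13 had a median log2 fold change of -2.4e-15 (from -0.52 to 0.22), with MT-ND6 as the 1 call. Without a filter none of the 13 was called, and with 1 library left out 1 to 3 were, with 1 (MT-ND6) without LV-SNORA28 replicate 2. MT-ATP6 passed in none of those 6 fits. With a replicate block 2 were called, MT-ND5 and MT-ND6.

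MT-ND6, the only message encoded on the light-strand transcript, stood at 3840.54, 4399.67 and 3883.23 FPKM with the control virus, against 2542.52, 2285.03 and 2287.7 FPKM under LV-SNORA28. For MT-ND6 the log2 fold change was -0.77 (SE 0.09, adjusted p 0.00696 in limma). How fully poly(A) selection recovered this message was not measured, so its level and its change are less certain than the test alone shows. Whether counting used strand is not given in the sources used here, so the MT-ND6 values may include reads of heavy-strand RNA. MT-CO1, a cytochrome c oxidase subunit from the heavy strand, had a log2 fold change of -0.56 (SE 0.08; adjusted p 0.0127 in limma). MT-ND1 (log2 fold change -0.24, adjusted p 0.429) and MT-CYB (-0.43, adjusted p 0.0870) did not pass in limma. LV-NC replicate 2 held MT-ND1 at 8245.8 FPKM, where the other controls held 5088.68 and 5828.16 FPKM.

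FPKM is relative to the library total, and the mitochondrial share differed between the groups, so the 10 genes were also scaled to the nuclear sum. The FPKM sum outside the mitochondrial genome came to 193783 ± 2489 (SD, n = 3) with the control virus and to 197457 ± 1685 (SD, n = 3) with SNORA28. Scaled to that sum, the median log2 fold change of the 10 genes was 0.14, that of POLRMT -0.24 and that of TFAM 0.13. None of the 10 passed (lowest adjusted p 0.111 in limma). The 10 genes together made up 0.0577%, 0.0559% and 0.0588% of that sum in LV-NC and 0.0591%, 0.0608% and 0.0653% in LV-SNORA28.

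**Figure D3:**
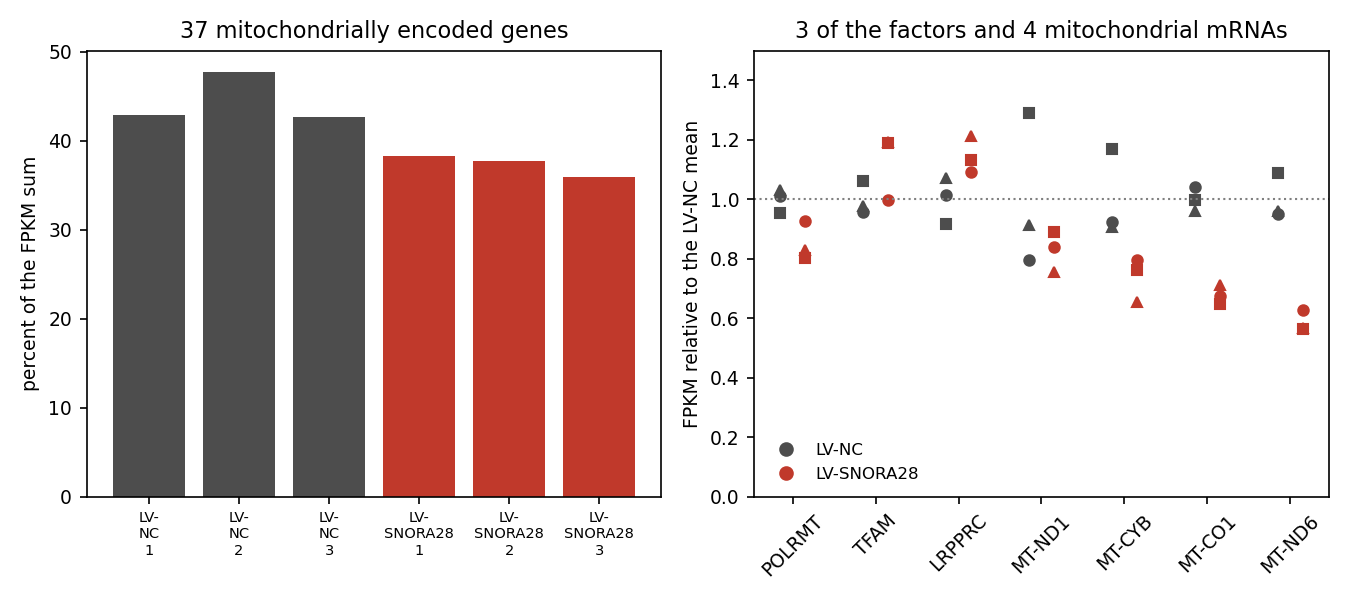
Left, percent of the FPKM sum taken by the 37 mitochondrially encoded genes in each library (bars from 0). Right, FPKM of POLRMT, TFAM, LRPPRC and 4 mitochondrial messages in each library divided by the LV-NC mean of that gene (symbols mark replicate numbers: circle 1, square 2, triangle 3; grey LV-NC, red LV-SNORA28). The LV-SNORA28 bars (35.9% to 38.3%) lie below the LV-NC bars (42.7% to 47.7%), and MT-CO1 and MT-ND6 separate the groups while TFAM and MT-ND1 overlap.

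The regulators that are known to set the expression of these factors were read from the same fit. Of 14 upstream regulators, 11 passed the filter and none had an adjusted p below 0.05 in limma, while 1 (GABPA) had an unadjusted p below 0.05. Over all genes tested these shares were 8.91% and 28.0%, so with 11 genes the absence of a call is near the background. NRF1, the factor of the palindrome above, averaged 5.21 ± 0.231 FPKM (SD, n = 3) under LV-NC against 5.22 ± 0.442 FPKM (SD, n = 3) under LV-SNORA28, with a 95% interval of -0.19 to 0.19 for the log2 fold change. GABPA, the DNA-binding subunit of the ETS factor GABP, stood at 7.11, 6.54 and 6.57 FPKM with the control virus, against 7.44, 8.12 and 8.96 FPKM under LV-SNORA28. These groups did not overlap, and the log2 fold change was 0.24 (SE 0.08), short of the threshold at an adjusted p of 0.115 in limma.

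The coactivator gene PPARGC1A did not exceed 0.01 FPKM in any library. Its relative PPRC1 was at 18.4 ± 1.85 FPKM (SD, n = 3) and 18.1 ± 0.199 FPKM (SD, n = 3), with a log2 fold change of -0.02 (adjusted p 0.899 in limma). The nuclear receptor gene ESRRA varied widely within both groups, from 6.16 to 14.31 FPKM in LV-NC and from 7.85 to 14.79 FPKM in LV-SNORA28. The genes with both motifs in the window, POLRMT, TFB1M and POLG2, had log2 fold changes of -0.22, 0.07 and 0.22.

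Further genes of mitochondrial DNA and RNA metabolism were described by 4 other lists. Over these and the regulators, 69 of 74 genes passed the filter and 6 were called (8.70%, beside 8.91% of all genes tested), 5 of them higher and 1 lower. The median log2 fold change of the 69 was 0.11, beside 0.09. Transcription elongation and termination (TEFM and the MTERF family among 7 genes) held no call. Its lowest adjusted p was 0.101 in limma, for the elongation factor TEFM.

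RNA processing and turnover held 4 higher genes and no lower gene among 24, or 16.7%, where 6.81% of all genes tested were called higher. RPUSD4, a pseudouridine synthase of the large mitochondrial ribosomal RNA, stood at 3.23, 3.3 and 3.49 FPKM with the control virus, against 5.46, 9.05 and 7.98 FPKM under LV-SNORA28. Every LV-SNORA28 library lay well above the controls, with a log2 fold change of 0.95 (SE 0.16; adjusted p 0.0218 in limma). PDE12, a mitochondrial phosphodiesterase that removes poly(A) tails, stood at 2.94, 2.76 and 3.27 FPKM with the control virus, against 4.83, 5.12 and 5.09 FPKM under LV-SNORA28. The estimate for this gene on the log2 scale was 0.59 (SE 0.08; adjusted p 0.0102 in limma).

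PTCD1, a pentatricopeptide protein acting on mitochondrial leucine tRNAs and ribosomal RNA, had a log2 fold change of 0.49 (SE 0.07; adjusted p 0.0118 in limma). RCC1L, a mitochondrial protein needed for ribosome assembly, had 0.39 (SE 0.09; adjusted p 0.0451 in limma), and it kept no adjusted p below 0.05 in any fit with 1 library left out. RPUSD4 passed in 1 of those 6 fits, PTCD1 in 5 and PDE12 in all 6. The large ribosomal RNA itself, MT-RNR2, fell with a log2 fold change of -0.52 (SE 0.09; adjusted p 0.0246 in limma), while MT-RNR1 had -0.13 (adjusted p 0.279). Under quantile normalization MT-RNR2 had -0.02, where a fall shared with the mitochondrial messages is largely removed. Poly(A) selection recovers these RNAs only in part.

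In the nucleotide supply list, 1 of 10 genes tested was called, close to the 8.91% of all genes tested. RRM2B, the p53-inducible ribonucleotide reductase subunit that provides deoxynucleotides outside S phase, stood at 11.86, 10.25 and 11.2 FPKM with the control virus, against 16.83, 17.56 and 18.87 FPKM under LV-SNORA28. The estimate for this gene on the log2 scale was 0.63 (SE 0.08; adjusted p 0.00902 in limma), and it passed in all 13 alternative fits. In the replication, nucleoid and repair list, 1 of 17 genes tested was called (5.88%, beside the same 8.91%). PHB2, a prohibitin of the inner membrane, fell from 103 ± 9.42 FPKM (SD, n = 3) to 75.9 ± 4.73 FPKM (SD, n = 3), with a log2 fold change of -0.44 (SE 0.09; adjusted p 0.0308 in limma). PHB2 passed in 1 of the 6 fits with 1 library left out.

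**Figure D4:**
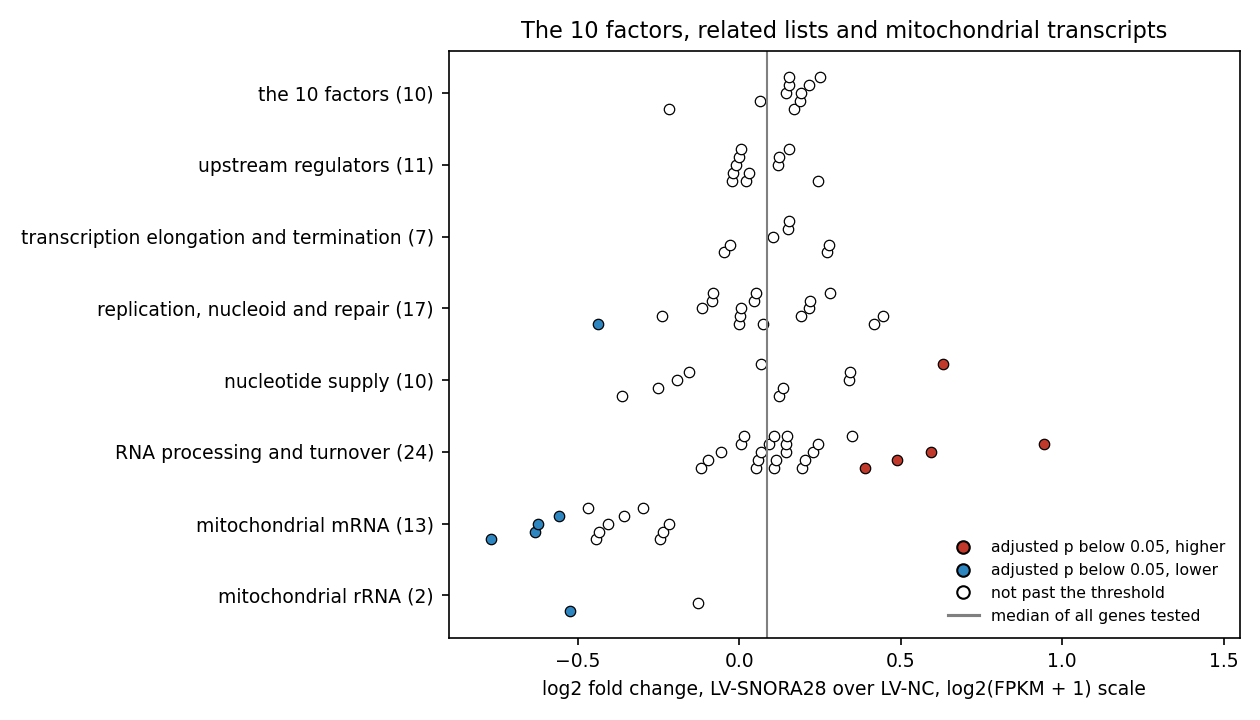
Log2 fold change, LV-SNORA28 over LV-NC, of every tested gene among the 10 factors, 5 related lists and the mitochondrial transcripts (1 point per gene, spread vertically for legibility; the number of genes tested in parentheses). Red and blue points have an adjusted p below 0.05; the row of the 10 factors has none, RNA processing and turnover has 4 higher genes, and all mitochondrial transcripts lie left of the grey median line on this FPKM scale.

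Across normalizations, filters and libraries the 10 genes stayed without a call. None had an adjusted p below 0.05 in limma in any of the 13 alternative fits, where the lowest value was 0.0753 for POLRMT with quantile normalization. POLRMT was negative in all 13, with log2 fold changes from -0.30 to -0.18, and TFAM, TFB2M, POLG, POLG2, SSBP1, LRPPRC and SLIRP were positive in every alternative that tested them. TFB1M and TWNK changed sign in at least 1 fit.

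**Figure D5:**
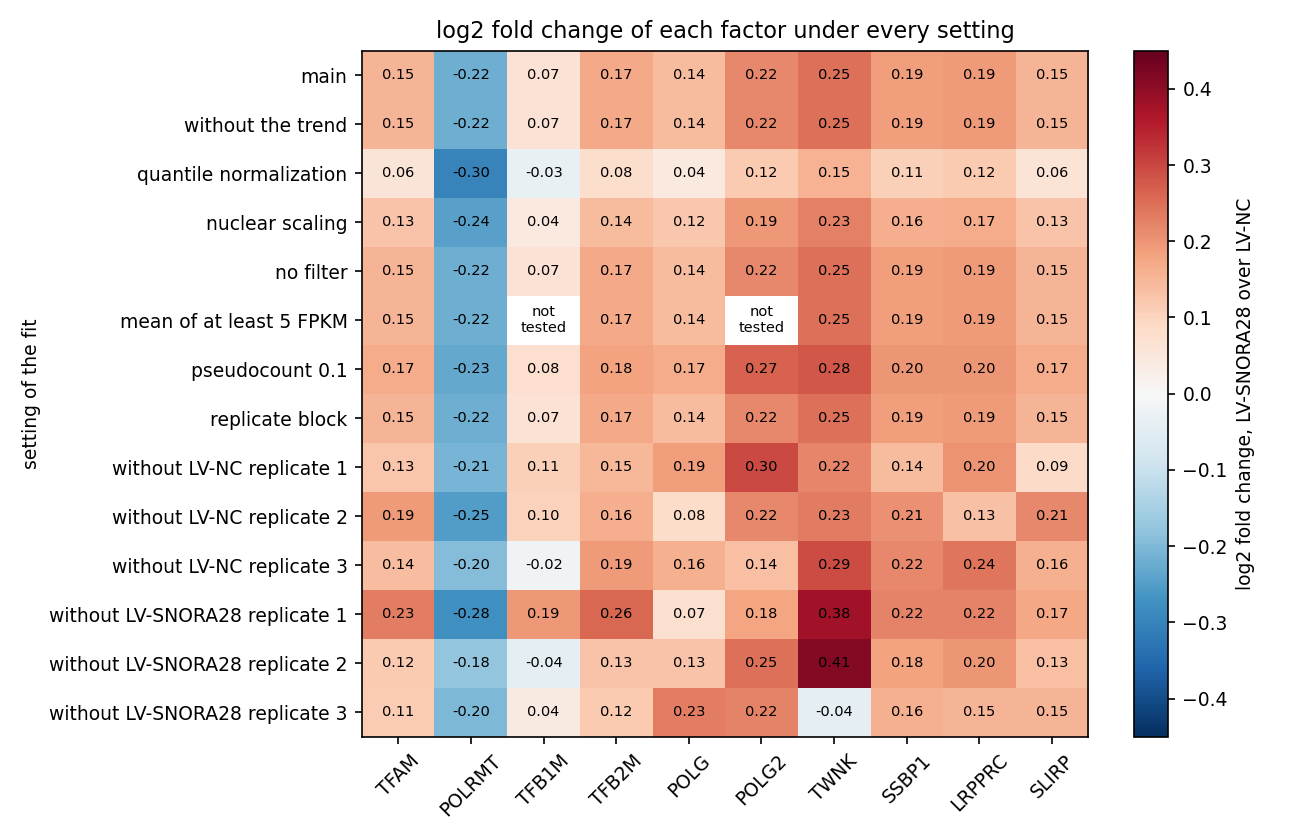
Log2 fold change, LV-SNORA28 over LV-NC, of each factor (columns) under every setting of the fit (rows; red positive, blue negative). POLRMT is blue in every row, TWNK turns to -0.04 without LV-SNORA28 replicate 3, and TFB1M and POLG2 fall below the stricter filter of a mean of 5 FPKM.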

How the data were processed

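Poly(A) RNA of 6 HCT116 libraries was sequenced as stranded (dUTP) paired ends. The authors deposited FPKM per Ensembl gene and library, with at most 2 decimals. The submitters' processing notes name cutadapt 1.9, HISAT2 2.2.1, StringTie 2.1.6, DESeq2, edgeR and hg38, with no role. The annotation release and the mapped totals are not given in the sources used here, so depth is unknown and no counting interval was attached. Symbols and positions came from GENCODE release 44 on GRCh38 (60401 of 60612 identifiers matched). The members and lists were chosen with earlier results of these data known, and the lists were compiled from general knowledge.

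Genes averaging at least 1 FPKM (12076) were fitted on log2(FPKM + 1) with limma 3.58.1 (trend, two-sided, Benjamini-Hochberg over all genes) in R 4.3.3. This scale understates the change of low genes. The procedure was tested on simulated data with changes larger than the estimate of any of the 10 genes, so recovery at their sizes was not tested. Named beside the 10 genes were 5 regulators, 4 mitochondrial messages, SNORA28 and up to 4 called genes per list with the largest fold change. The markers, MT-RNR1 and MT-RNR2, overlapping genes, TEFM and 2 further called messages were named outside that rule. Quantile and nuclear scaling, other filters and pseudocounts, a replicate block, no trend and each library left out were alternatives. DESeq2 was not run, since no counts were used.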

Additional observations from a re-analysis of the deposited data

How the results depend on the processing

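The 1076 genes called among all genes numbered 397 with no filter on low values (32761 genes tested), and from 279 (without LV-SNORA28 replicate 2) to 628 (without LV-NC replicate 1) with 1 library left out, where fewer samples entered. Quantile normalization moved the split from 822 higher and 254 lower to 451 and 375, and the median log2 fold change from 0.09 to -0.0013. The count among the 10 factors was 0 in every fit and 0 at the threshold of the study. The number of calls in the related lists, 6 in the main fit, was 3 with no filter and 2 to 5 with 1 library left out. It was 2 without LV-SNORA28 replicate 2 and 3 without LV-NC replicate 1, LV-NC replicate 3 or LV-SNORA28 replicate 3. The genes were not always the same. Without LV-SNORA28 replicate 1, TRMT10C was among the 5, and RCC1L and PHB2 were not. Without the trend and with quantile normalization, SAMHD1 was called and RCC1L was not.

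The labels do not say whether libraries of the same number were paired. The correlations of their deviations over all genes tested were -0.04, 0.09 and 0.0098 for numbers 1, 2 and 3, which does not settle it. A fit with a replicate block called 510 genes in all, 0 of the 10 factors and 4 of the related genes. Each of the 10 factors had a smaller SE there than in the main fit, as with TFAM at 0.069 against 0.087. RCC1L and PHB2 lost their calls there, with adjusted p-values of 0.0528 and 0.0837, and so did MT-CO1 and MT-ATP6, leaving 2 of the 13 mitochondrial messages called. The cause was not tested.

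TFB1M reversed to -0.035 with quantile normalization and ranged from -0.041 to 0.19 with 1 library left out, and TWNK from -0.044 (without LV-SNORA28 replicate 3) to 0.41. The other 124 values of the 10 factors kept their direction and their side of the threshold. Of the related named genes, 51 values kept both and 25 fell short of the threshold with the same direction. The difference in mitochondrial share, -7.14 percentage points, ranged from -8.02 to -5.51 with 1 library left out and was -7.06 for the 13 messages alone. The difference in the log2 TFAM/POLRMT ratio ranged from 0.32 to 0.55 with 1 library left out. The differences of LRPPRC/SLIRP, POLG/POLG2 and TWNK/SSBP1 took either sign with 1 library left out, from -0.098 to 0.12, from -0.18 to 0.020 and from -0.22 to 0.28, and that of TFB1M/TFB2M ran from -0.23 to -0.030. Depth is unknown, so its limit on low genes was not measured.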

Other observations

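LV-SNORA28 replicate 3 held the highest value of 5 of the 10 factors and the lowest of none. TWNK was at 10.06 FPKM there and at 4.87 to 5.6 FPKM elsewhere. MGME1, the exonuclease that trims mitochondrial DNA ends during replication and a gene singled out after its values were seen, was at 19.57 FPKM in that library and at 10.04 to 12.61 FPKM in the other 5. Its log2 fold change was 0.42 (SE 0.17; adjusted p 0.166 in limma). LV-NC replicate 1 held the lowest value of 4 factors. The cause was not tested.

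Patterns over the 6 libraries were compared with 5818 protein-coding genes averaging 5 FPKM or more. Closest to TFAM were PIM3, TERF2IP and RDH14 (Pearson r 0.993, 0.990 and 0.981), and 143 genes had an r above 0.9. Closest to POLRMT were PTPN18, CBX8 and TKT (Pearson r 0.982, 0.976 and 0.970), and 83 genes had an r above 0.9. These 6 points share their libraries and scaling, and genes are not independent, so the values are a description. None of these 6 genes had an adjusted p below 0.05 in limma.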
